A study of Oryza sativa with 6 samples.

Results

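The small heat shock proteins of the cytosol and the disaggregase HSP101 were followed in the rice internode, at 8 loci: Os01g0136100, Os01g0136200, Os01g0184100, Os03g0266300, Os03g0266900, Os03g0267000, Os03g0267200 and, for HSP101, Os05g0519700. The loci were listed by identifier, not by their values, and every array probe whose name begins with one of them was taken, which gave 22 of 42418 gene probes and 8 of 29689 loci. Agilent arrays of 1 colour had been hybridised with RNA from the mid part of the second uppermost internode, sampled at heading from the cultivar Nipponbare. The knockout group consisted of 3 biological replicates of T2 plants from 1 CRISPR/Cas9 line with OsCAld5H1 knocked out, and the wild-type group of 3 biological replicates. Both genotypes had been raised at 27 °C under a photoperiod of 12 h, and no heat treatment is named in the labels, so the levels below are those at the growth temperature. OsCAld5H1 encodes coniferaldehyde 5-hydroxylase, an enzyme of the syringyl branch of lignin synthesis.

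Small heat shock proteins are chaperones that bind unfolding proteins and hold them in a soluble state. HSP101, a cytosolic ring-shaped ATPase of the ClpB family, pulls proteins out of aggregates with help from HSP70, and is needed in plants for acquired thermotolerance. Transcription of both kinds of gene is driven by heat shock factors and is known to rise steeply in heated leaves and roots. The files pair these identifiers with transcript identifiers but with no product names, and 0 of the 8 identifiers occurred in the reference table, so beyond HSP101 the loci are called by identifier. The identifiers place 3 of the loci on chromosome 1, 4 on chromosome 3 and HSP101 on chromosome 5. No genome of the array's build was used here, so no coordinates or sequences are given. Small heat shock protein genes of 1 class are similar in sequence, and cross-hybridisation between them was not tested.

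All arrays had 74.3% to 78.3% of their gene spots well above background and 0 saturated gene spots. The 3 knockout arrays lay on 1 slide and the 3 wild-type arrays on another, so that slide and genotype cannot be told apart in any difference below. Knockout replicate 1 stood apart from the other knockout arrays, with correlations over all tested probes of 0.972 and 0.968 with them, whereas the wild-type arrays correlated with each other at 0.991 to 0.992. At the probe of the targeted gene (Os10g0512400), the log2 signal was -4.00, -1.78 and -1.23 in knockout replicates 1 to 3, and -0.54, -0.52 and -0.05 in wild-type replicates 1 to 3 (limma, adjusted p = 0.205). Where the line is edited in this gene was not known here, so that level does not check the edit. No markers of the internode were listed; 10 loci of green tissue (Rubisco small subunits and light-harvesting proteins) were all bright enough to test. In bulk tissue, fewer cells of a type and less RNA per cell cannot be told apart.

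Every heat shock locus gave signal at 27 °C. Of the 22 probes, 18 were well above background on all 6 arrays. The exceptions were 3 of the 4 probes of Os03g0266900 and the probe of Os03g0267000, which were so on 3 wild-type arrays but not on knockout replicate 1. All 22 therefore passed the filter, which asked for signal well above background on all 3 arrays of at least 1 genotype. Levels are given as log2 of the processed signal minus the 75th percentile of the array over its gene spots, so that 0 is the 75th percentile itself. Each probe has its own affinity, so levels of different probes are not ranked, and where the probes of Os03g0266300 are subtracted below, the change of that gap between arrays is read and not its size.

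Across the 22 probes, 0 passed limma's threshold of an adjusted p of 0.05 (Benjamini-Hochberg over 32134 tested probes), against 3.16% of all tested probes (1.29% lower and 1.87% higher in knockout internodes). By unadjusted p under 0.05, 8 did, all of them lower, against 19.1% of all tested probes in either direction and 8.88% lower. In 9 of the 22 probes every knockout array lay below every wild-type array, which held for 13.4% of all tested probes, and in 0 did every knockout array lie above, which held for 13.5%. Those 9 probes belong to only 2 loci: 8 measure Os03g0266300 and 1 measures Os01g0136100. Counted by locus at the brightest probe, 2 of 8 loci had genotypes without overlap, close to the 27.4% of all tested loci. Likewise, 2 of 8 loci had an unadjusted p under 0.05 by limma, near the 19.6% of all tested loci. In both counts the loci were Os03g0266300 and Os01g0136100, and at neither did the genotype difference pass the test across the array.

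**Figure D1:**
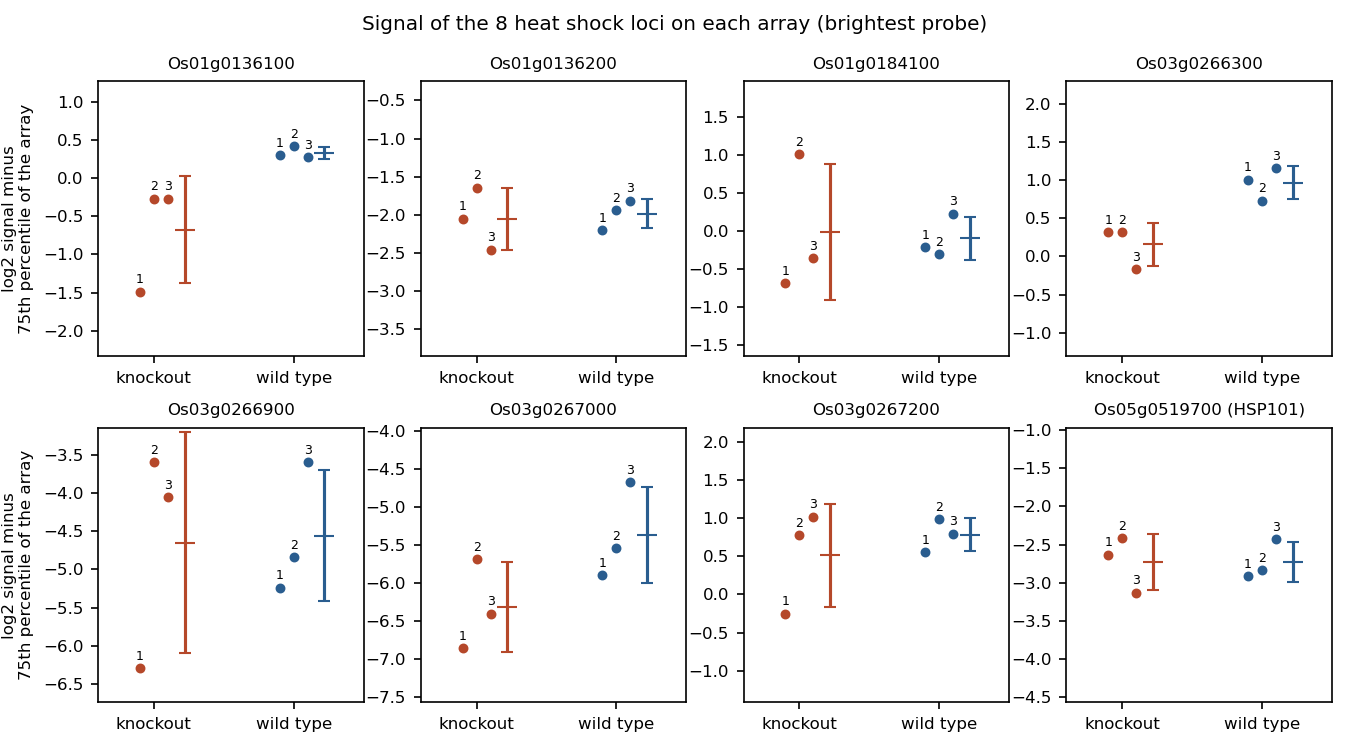
Log2 signal minus the 75th percentile of the array (y axis, the same span in every panel) at the brightest probe of each of the 8 loci, for knockout arrays (left in each panel) and wild-type arrays (right); points are arrays numbered by replicate and bars are mean and SD, n = 3. The knockout arrays lie wholly below the wild-type arrays at Os01g0136100 and Os03g0266300 and overlap with them at the other 6 loci.

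Os03g0266300 was the member with the lowest adjusted p. At its brightest probe (AB110191), the log2 signal was 0.32, 0.32 and -0.17 in knockout replicates 1 to 3, and 1.01, 0.73 and 1.16 in wild-type replicates 1 to 3. Each knockout array was thus below each wild-type array, and knockout replicate 3 was the lowest of the 6. The difference was -0.81 ± 0.19 (SE, n = 3 per genotype; 95% interval -1.27 to -0.35), or 1.75-fold lower in knockout internodes, with limma's adjusted p at 0.0894. An exact permutation test of 3 arrays against 3 gave p = 0.1 (two-sided), the smallest it allows. The direction was the same under all 16 alternative settings, which gave -0.93 to -0.64, and the adjusted p, 0.0656 to 0.293, was under the threshold in none. Without knockout replicate 1 the difference was -0.89 (adjusted p = 0.0770), so this difference was as large without the array that stood apart.

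The array carries 9 probes for Os03g0266300, which differ in where they lie and in how they behaved. Of these, 7 match transcript Os03t0266300-02 at the end of its coding sequence and in its 3′ untranslated region, and differed by -0.81 to -0.71 (SE 0.18 to 0.22; adjusted p 0.0894 to 0.133), each with the 2 genotypes apart. These probes read 1 transcript on the same arrays and are not replicates of the genotype. The probe in the 5′ untranslated region and coding sequence of that transcript (D21285) read -2.73, -2.67 and -2.99 in knockout replicates 1 to 3, and -2.44, -2.65 and -2.33 in wild-type replicates 1 to 3. Its genotypes were also apart, but by a narrow margin between knockout replicate 2 and wild-type replicate 2, and it differed by -0.33 ± 0.14 (SE; adjusted p = 0.288). The probe assigned to transcript Os03t0266300-01 (AK104129) read -5.35, -5.26 and -5.92 in knockout replicates 1 to 3, and -5.46, -5.49 and -5.18 in wild-type replicates 1 to 3. Its genotypes overlapped, with a difference of -0.13 ± 0.21 (SE; adjusted p = 0.769).

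The size of the difference in Os03g0266300 therefore varied with the probe. Per array, the mean of the 7 probes reaching the 3′ end exceeded the 5′ probe by 2.73, 2.69 and 2.51 log2 units in knockout replicates 1 to 3, and by 3.08, 3.01 and 3.11 in wild-type replicates 1 to 3. The excess averaged 2.64 ± 0.12 in knockout arrays and 3.07 ± 0.05 in wild-type arrays (SD, n = 3 each), without overlap (exact permutation test, two-sided p = 0.1, the smallest possible). All 9 probes shared the same lowest and highest arrays, knockout replicate 3 and wild-type replicate 3, and correlated over the 6 arrays at 0.634 to 0.9996, with a median of 0.987.

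**Figure D2:**
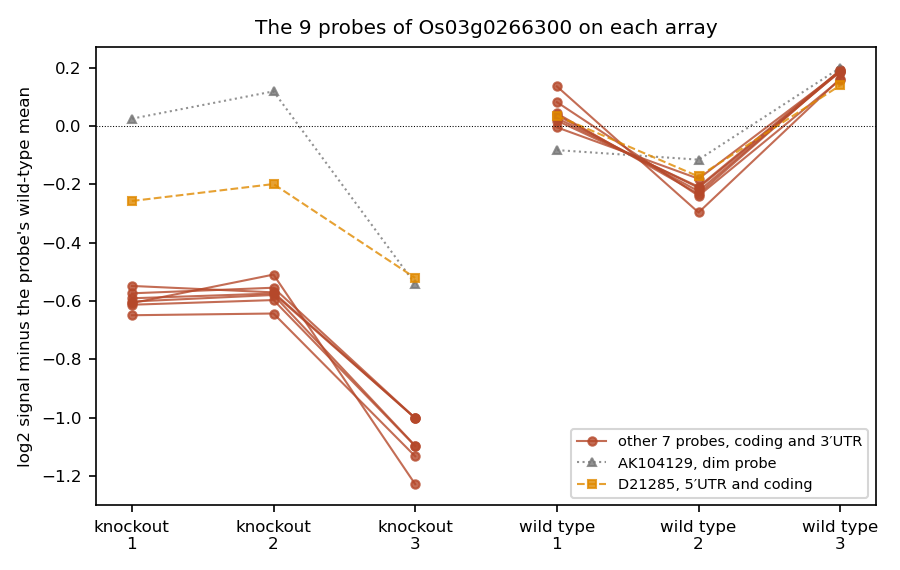
Log2 signal of the 9 probes of Os03g0266300, each minus its own mean over the wild-type arrays (y axis), on the 3 knockout arrays (left) and the 3 wild-type arrays (right); lines join arrays of 1 probe within a genotype and carry no order. The 7 probes that share the coding and 3′ region lie close together and below 0 on every knockout array, with the 5′ probe and the dim probe AK104129 above them.

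Os01g0136100 differed by more but less evenly. Its probe (X60820) read -1.49, -0.27 and -0.27 in knockout replicates 1 to 3, and 0.30, 0.42 and 0.27 in wild-type replicates 1 to 3. The wild-type arrays were close together (SD 0.08, n = 3), and knockout replicate 1 was far below the other 5 arrays. The difference was -1.01 ± 0.34 (SE; 95% interval -1.84 to -0.18), a 2.01-fold lower signal in knockout internodes, with an adjusted p of 0.190 by limma. Without knockout replicate 1 it was smaller, -0.60, and passed (adjusted p = 0.0462 by limma, over 5 arrays), in a fit where 4.72% of all tested probes did. It was the only one of the 22 probes to pass under any setting tried. With 1 probe on the array, no other probe checks this value.

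Os03g0267000 was read by 1 dim probe (X75616), which entered the test through the wild-type arrays and was not well above background on knockout replicate 1. The log2 signal was -6.86, -5.68 and -6.40 in knockout replicates 1 to 3, and -5.89, -5.55 and -4.67 in wild-type replicates 1 to 3. Knockout replicate 2 lay above wild-type replicate 1, so the genotypes overlapped. The difference of -0.94 ± 0.41 (SE; adjusted p = 0.284 by limma) thus rests in part on a signal near background. It was -0.67 without that array and -0.31 with normexp background correction and quantile normalisation together. The probe's median spot signal was 53.0 to 66.5 units on the knockout arrays and 62.0 to 103 on the wild-type arrays, over a local background of 25.0 to 27.5.

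Os03g0266900 was the most variable of the 8 loci. Its brightest probe (M80186) read -6.30, -3.59 and -4.06 in knockout replicates 1 to 3, and -5.24, -4.84 and -3.59 in wild-type replicates 1 to 3. The lowest and the highest value were both knockout arrays, 2.71 log2 units apart. Its SD was 1.45 among knockout arrays and 0.86 among wild-type arrays, larger than at 98.8% and 98.5% of all tested loci. The probe was dim, with a median spot signal of 57 to 173 units over a local background of 24 to 30. This spread thus includes signals near background. The 4 probes of the locus correlated at 0.969 to 0.997 with each other, so the spread lay between arrays and not between spots. The genotype difference was -0.09 ± 0.78 (SE, 95% interval -1.99 to 1.81, adjusted p = 0.965 by limma), and large changes of either sign lie within that interval. Without knockout replicate 1 it turned to 0.73 (adjusted p = 0.409). With normexp background correction and quantile normalisation together, over all 6 arrays, it was -0.05 ± 0.40 (SE). The other probes of the locus differed by -0.32 (AK119243), -0.68 (AK119717) and -0.28 (D12635). Their adjusted p by limma was 0.873, 0.783 and 0.892, and each had overlapping genotypes.

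Os01g0184100 and Os03g0267200 were likewise moved by single arrays. Os01g0184100 (AK071240) read -0.68, 1.01 and -0.35 in knockout replicates 1 to 3, and -0.21, -0.30 and 0.23 in wild-type replicates 1 to 3, so knockout replicates 1 and 3 lay below all wild-type values and knockout replicate 2 above them. Its difference was 0.08 ± 0.44 (SE; adjusted p = 0.939), 0.42 without knockout replicate 1 and -0.42 without knockout replicate 2. Os03g0267200 (AK069547) read -0.25, 0.78 and 1.02 in knockout replicates 1 to 3, and 0.56, 0.99 and 0.80 in wild-type replicates 1 to 3. At this locus only knockout replicate 1 lay below all wild-type values, and knockout replicate 3 lay above them. The difference was -0.27 ± 0.34 (SE; adjusted p = 0.717), and 0.11 without that array.

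Os01g0136200, whose identifier follows that of Os01g0136100, had a smaller difference by point estimate. Its probe (AK121025) read -2.05, -1.65 and -2.46 in knockout replicates 1 to 3, and -2.20, -1.94 and -1.82 in wild-type replicates 1 to 3. The knockout arrays spanned the whole wild-type range. The difference was -0.07 ± 0.23 (SE; 95% interval -0.62 to 0.49; adjusted p = 0.903). Whether it differs from that of Os01g0136100 was not tested.

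HSP101 was read by 4 probes. The brightest (AK121414, transcript Os05t0519700-03) gave -2.63, -2.41 and -3.13 in knockout replicates 1 to 3, and -2.92, -2.83 and -2.43 in wild-type replicates 1 to 3. The means were almost equal, and both extremes among the 6 arrays were knockout arrays. The difference was 0.00 ± 0.23 (SE; 95% interval -0.55 to 0.56; adjusted p = 0.996), and changes of either sign lie within that interval. The other probes differed by 0.21 (AF332981), 0.26 (AK100903) and 0.34 (AK105433), with adjusted p of 0.679, 0.457 and 0.378, and each had overlapping genotypes. The sign of the difference at AK121414 turned under 8 of 16 alternative settings, within -0.15 to 0.21. The 4 probes correlated with each other over the arrays at 0.355 to 0.947, less tightly than the probes of Os03g0266900 or most of those of Os03g0266300.

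**Figure D3:**
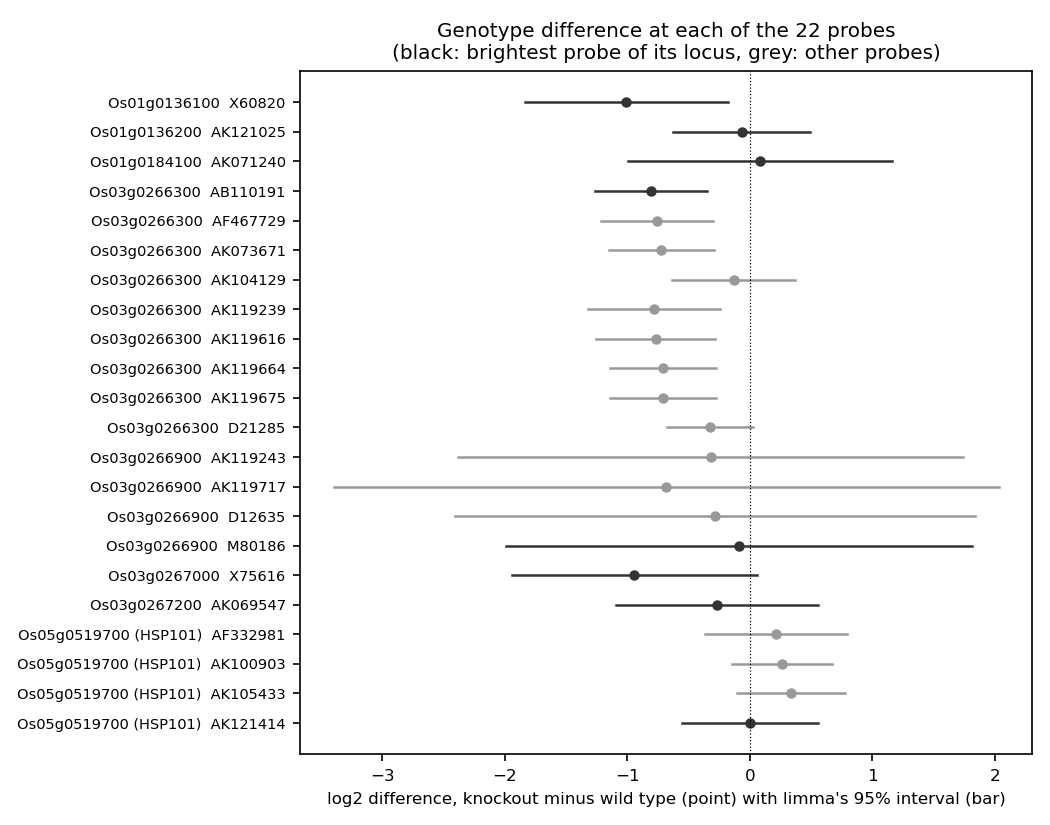
Log2 difference, knockout minus wild type (x axis, point), with limma's 95% interval (bar) for the 22 probes, grouped by locus and named by transcript accession; black marks the brightest probe of a locus. Intervals of 8 probes, 7 of Os03g0266300 and 1 of Os01g0136100, lie wholly below 0, and those of Os03g0266900 are the widest.

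The 8 loci varied together in part, and 7 of them had a larger SD among knockout than among wild-type arrays, Os03g0267000 being the exception (0.59 in knockout, 0.63 in wild type). Taken at the brightest probe, the median SD of the members was 0.633 among knockout arrays and 0.239 among wild-type arrays, against 0.251 and 0.128 over all 21798 tested loci. The SD was above the all-locus median at 8 of 8 members in the knockout group and at 7 of 8 in the wild-type group, Os01g0136100 being the exception. Knockout replicate 1 was the lowest array at 5 of 8 members and knockout replicate 3 at the other 3. The highest array was knockout replicate 2 at 4 members, wild-type replicate 3 at 2, and knockout replicate 3 and wild-type replicate 2 at 1 each. The mean deviation of the members from their own 6-array means was -0.72, 0.34 and -0.20 in knockout replicates 1 to 3, and -0.05, 0.11 and 0.52 in wild-type replicates 1 to 3.

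Of the 28 pairs of members, 22 had a positive correlation of their deviations from the genotype means, with a median r of 0.553 and a range of -0.595 to 0.956. Without knockout replicate 1 the count was 19 and the median 0.593. These values describe at most 6 points each, and the arrays of a genotype share slide and scan. The closest pair was Os01g0136100 with Os03g0267200 (r = 0.956), followed by Os01g0136200 with HSP101 (0.929) and Os03g0266900 with Os03g0267000 (0.892). In the closest pair, both loci were lowest on knockout replicate 1, and the r of single pairs without that array is not given here. Neighbouring identifiers were not always alike: Os01g0136100 and Os01g0136200 had an r of 0.005. The lowest r of the 28 pairs, -0.595, was that of Os03g0266300 with Os03g0267200, which share a chromosome but are not neighbours by identifier.

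Co-variation with HSP101 was tested for the 7 small heat shock protein loci over the 6 arrays, and 0 of 7 relations passed after Benjamini-Hochberg adjustment. HSP101 was taken at its brightest probe (AK121414) only. Its 4 probes correlated with each other at 0.355 to 0.947, and whether a relation holds at the others was not tested. The strongest was Os01g0136200, with Pearson's r = 0.92 (exact permutation p = 0.0125, adjusted p = 0.0875) and Spearman's rho = 0.94 (exact permutation p = 0.0167, adjusted p = 0.117). Without the 2 arrays farthest from the HSP101 median, knockout replicates 2 and 3, its r was 0.758, and within genotypes, as deviations from the genotype means, it was 0.93. The other 6 loci had r between -0.25 and 0.63, with adjusted p of 0.603 to 0.861. For Os03g0266300 the pooled r was 0.38 (exact permutation p = 0.439), but 0.85 within genotypes. The pooled value also holds the genotype difference of that locus, -0.81, beside 0.00 for HSP101.

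The wider heat shock system was read from 49 further loci, listed from knowledge of rice nomenclature: heat shock factors, the HSP70 and HSP90 chaperones, organellar small heat shock proteins with ClpB, and other heat-responsive loci. Of these, 47 were on the array and 39 were tested at their brightest probe. By limma's adjusted p, 0 of 39 passed, against 3.41% of all tested loci, and 6 had an unadjusted p under 0.05, against 19.6%. The median difference was -0.11, with 13 higher and 26 lower by point estimate, and the median over all tested loci was 0.00. Without knockout replicate 1 the median of the 39 was 0.14 and without wild-type replicate 3 it was 0.03, so its sign rested on those arrays.

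Among heat shock factors, a family of transcription factors, 20 of 24 were tested, with 6 higher, 14 lower and a median of -0.14. Of the HSP70 and HSP90 chaperones, which refold client proteins, 13 of 13 were tested, with 7 higher, 6 lower and a median of 0.03. The 3 tested organellar small heat shock proteins and ClpB loci, of 8, were all lower by point estimate (median -0.43), as were the 3 tested of 4 other heat-responsive loci (median -0.61). The 3 largest differences were at Os05g0530400, a heat shock factor (-1.21 ± 0.68, SE; adjusted p = 0.395), Os02g0758000, an organellar small heat shock protein (-1.01 ± 1.69; adjusted p = 0.787), and Os03g0277300, of the HSP70 and HSP90 list (-0.89 ± 0.94; adjusted p = 0.654). Each had overlapping genotypes, and the first 2 entered the test through the wild-type arrays: among the knockout arrays, 1 of 3 was well above background for Os05g0530400 and 2 of 3 for Os02g0758000, so that their differences, and their place among the largest, rest in part on signals near background. At Os09g0482100, of the HSP70 and HSP90 list, 1 probe that was not its brightest (AB111810) rose by 1.08 in knockout internodes (limma, adjusted p = 0.0266), while the brightest differed by 0.19 (adjusted p = 0.621) and the other probe (D29710) by -0.23 (adjusted p = 0.459).

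Some of the further heat shock loci shared the members' low signal on knockout replicate 1. Knockout replicate 1 was the lowest of the 6 arrays at 20 of the 39 further heat shock loci (51.3%) and at 62.5% of the members, against 23.6% of all tested loci. In the rest of the pattern the lists were not all alike. The 3 tested loci of the organellar and ClpB list had a median deviation of -1.37, 0.64 and -0.11 in knockout replicates 1 to 3. In wild-type replicates 1 to 3 it was 0.10, -0.06 and 0.59. The 3 other heat-responsive loci had -1.06, 0.01 and -0.06 in knockout replicates 1 to 3, and 0.06, 0.04 and 0.47 in wild-type replicates 1 to 3. Both lists were thus lowest on knockout replicate 1, as the members were. The median deviation of the heat shock factors was -0.25, -0.02 and 0.12 in knockout replicates 1 to 3, and -0.07, -0.03 and 0.18 in wild-type replicates 1 to 3. That of the HSP70 and HSP90 chaperones was -0.17, 0.39 and 0.33 in knockout replicates 1 to 3, and -0.27, -0.06 and -0.10 in wild-type replicates 1 to 3, so that wild-type replicate 1 was their lowest array. The widest loci were chosen after their values were seen. Os06g0592500 had a log2 signal of -4.33, 1.25 and -0.95 in knockout replicates 1 to 3, and -1.57, -1.79 and 1.15 in wild-type replicates 1 to 3. Os02g0758000 had -7.57, -1.35 and -4.05 in knockout replicates 1 to 3, and -3.88, -4.83 and -1.22 in wild-type replicates 1 to 3. In both, knockout replicate 2 and wild-type replicate 3 were high together and knockout replicate 1 was low, as at Os03g0266900, but over a wider range. The heat shock factors Os08g0546800, Os09g0526600 and Os04g0568700 had the same 2 highest arrays and the same lowest. Os03g0277300, of the HSP70 and HSP90 list, was also lowest on knockout replicate 1 (-5.36). Its highest arrays, however, were wild-type replicate 3 (-1.76) and knockout replicate 3 (-1.77), with knockout replicate 2 at -2.79. Os02g0758000 and Os08g0546800 were well above background on 2 of 3 knockout arrays. Their wide ranges thus include signals near background. The median deviation of the 10 green tissue loci was -0.12, 0.21 and -0.31 in knockout replicates 1 to 3, and 0.43, -0.27 and 0.15 in wild-type replicates 1 to 3. Its sign was that of the members' mean deviation on all arrays but wild-type replicates 1 and 2, and its part in the members' values was not tested. What set the arrays apart was not tested.

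**Figure D4:**
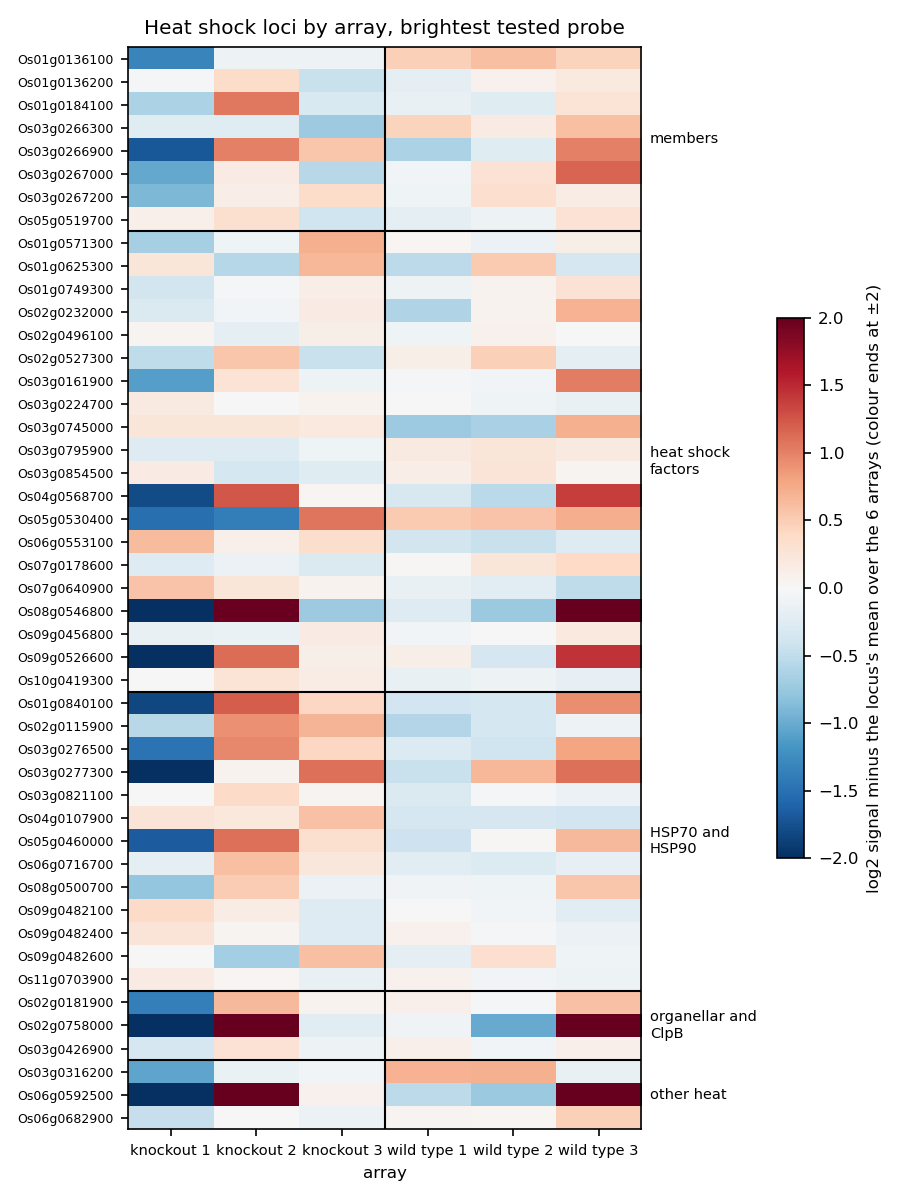
Log2 signal minus the mean of the locus over the 6 arrays (colour, ending at ±2) for the 8 members and the 39 further tested heat shock loci (rows, grouped by list), on the knockout arrays (left 3 columns) and wild-type arrays (right 3 columns). Several members and further loci are blue on knockout replicate 1 and red on knockout replicate 2 and wild-type replicate 3, whereas loci such as Os02g0496100 hardly vary.

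The mean profile of the members was then compared with all other loci well above background on all 6 arrays. The 3 most alike were Os04g0675000 (r = 0.992), Os02g0496500 (0.990) and Os06g0598800 (0.987), none of them in the heat shock lists, and all with differences of -0.34 to -0.11 that did not pass. With 20702 loci and 6 points, high values are common: 3.73% of the loci had an r above 0.8. Of the 34 further heat shock loci compared, 11 (32.4%) did, and their median r was 0.430 against -0.06 for all loci compared. These 11 included 4 HSP70 and HSP90 loci, led by Os08g0500700 (r = 0.968, rank 16), 3 heat shock factors, 2 of the organellar and ClpB list and 2 other heat-responsive loci. At the other end, 12 of the 34 (35.3%) had an r below 0, against 53.7% of all loci compared, the lowest being the heat shock factors Os03g0224700 (r = -0.930) and Os07g0640900 (-0.753). They are a description over the same 6 arrays, and the deviation of the member profile was largest on knockout replicate 1.

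Loci whose identifiers fall among those of the members had differences of their own; the files give no role for them. Within the run on chromosome 1, Os01g0135700 read -1.83, -2.15 and -2.36 in knockout replicates 1 to 3, and -3.17, -2.94 and -2.88 in wild-type replicates 1 to 3. It was thus higher on every knockout array, by 0.88 ± 0.17 (SE; adjusted p = 0.0544), opposite in sign to Os01g0136100. Os01g0136000, the identifier just before Os01g0136100, differed by -0.88 ± 0.32 (SE; adjusted p = 0.213), the 4 probes of Os01g0135900 by 0.04 to 0.12, and Os01g0136300 by 0.35 ± 0.76 (SE; adjusted p = 0.841). In the run on chromosome 3, Os03g0266200 differed by 0.10, Os03g0266700 by -0.16, the 2 probes of Os03g0266800 by 0.11 and 0.46, and the 3 probes of Os03g0267300 by -0.39 to 0.25, with adjusted p of 0.218 or above. Os01g0135800 and Os03g0267100 were too dim to test. None of the tested loci in these runs passed the threshold.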

How the data were processed

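Labelled cRNA had been made with Cy3 from 0.1 µg of total RNA, per the labels' protocols. The deposited scanner files hold intensity, made, per the submitters' processing notes, with Agilent Feature Extraction 12.0.3.1 and with the local background already subtracted, and 0 or 1 flags. The authors' deposited value table holds intensity on a linear scale that equals the processed signal times 1 constant per array (1.51 to 1.72). Log2 of the processed signal minus the array's 75th percentile over gene spots was used. Control spots were dropped, as were 5 to 9 outlier spots per array, and repeated spots were averaged per probe. A probe was tested where well above background on all 3 arrays of at least 1 genotype. limma 3.58.1 (R 4.3.3) fitted a genotype term to 32134 probes, with Benjamini-Hochberg adjustment and a threshold of 0.05. It was tried on simulated data with the spread of the wild-type arrays in both genotypes. That does not check the fit at the larger spread of the knockout arrays (median SD 0.251 against 0.128 over all tested loci). The brightest probe stood for a locus. The number of arrays limits the precision. Members and lists were chosen with earlier results of these data known. Every member was named, with each probe given or, for 7 probes of Os03g0266300, their range. Of the further heat shock loci, those past the threshold or else the 3 largest differences were named. Loci within the 2 identifier runs and the 3 loci most like the members' mean were named too. Alternatives changed background correction, scaling, filter, outlier spots, replicate block, variance model, array weights and arrays used.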

Additional observations from a re-analysis of the deposited data

How the results depend on the processing

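Of all tested probes, 1016 passed (600 higher and 416 lower in knockout); 645 did without a filter on dim probes, 458 with the replicate block, and 143 to 1539 when 1 array was left out. With normexp and quantile normalisation together the split was 456 higher and 494 lower, and with quantile normalisation alone 557 and 440. Same-numbered arrays correlated in their deviations at 0.409, -0.174 and 0.164, and arrays of different numbers at -0.487 to 0.349. With 3 arrays per genotype, these values cannot show whether the numbers pair the samples. With the replicate block, Os03g0266300 had an adjusted p of 0.176 by limma and 0 member probes passed. Slide could not be a block, since each slide holds 1 genotype, and normexp took the median spot signal in place of the mean, which the tables used here lack. Passing member probes were 0 under every setting except without knockout replicate 1, where Os01g0136100 passed (leaving out 1 array gave 0 to 1). Of the further heat shock loci, 1 passed with array weights (Os04g0107900 at probe AK063568, 0.73, adjusted p = 0.0390 by limma). That probe read only 59 to 78 units over a local background of 23.5 to 28. The other probes of Os04g0107900 (AK063629, AK063698, AK063751 and AK105370) were well above background on 0 arrays of either genotype. When 1 array was left out, 0 to 1 of the further loci passed: Os02g0115900 without knockout replicate 1 (1.14) and Os05g0530400 without knockout replicate 3, where neither remaining knockout array was well above background, so that no size is given. The median of the further loci then ran from -0.26 to 0.14.

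Some near-zero differences turned sign. HSP101 was at -0.047 with normexp and quantile normalisation, -0.028 with quantile normalisation alone, -0.0062 with the authors' values, -0.062 with array weights, and -0.15 to 0.21 when 1 array was left out. Os03g0266900 was at 0.18 with array weights and -0.62 to 0.73 when 1 array was left out. Leaving out 1 array gave -0.27 to 0.14 for Os01g0136200, -0.42 to 0.42 for Os01g0184100 and -0.52 to 0.11 for Os03g0267200. The cause was not tested. Os03g0267000, at -0.31 with normexp and quantile normalisation, could not be tested where all 6 arrays had to be above background. With 3 arrays per genotype and knockout SDs of 0.28 to 1.45 at the 8 loci, the precision of the difference varied by locus, as the 95% intervals show.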
